A study of Mus musculus with 12 samples.

Results

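The 13 genes and transcripts described here were chosen by their array values, as entries high in whole testes, low in GFRα1+ spermatogonia and already close to the whole testes level in KIT+ spermatogonia. Levels are log2 signals above the 75th percentile of each array, and a gene or transcript name is represented by that of its probes which was brightest on average in the 9 sorted samples. An entry was taken where the mean of whole testes was at least 3 log2 units above GFRα1+, KIT+ was no more than 1 unit below whole testes, NGN3+ was more than 0.5 above GFRα1+, KIT+ was at or above NGN3+, and the KIT+ mean was at least -2. Of 36413 names on the array, 13 met all 5 conditions.

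GFRα1+ cells were the EGFP-positive fraction of Gfra1-EGFP mice. NGN3+ and KIT+ cells were the EGFP-positive cells of transgenic Ngn3-EGFP mice without and with the KIT receptor at the surface, and in these mice EGFP outlasts the expression of its driver. Whole testes came from wild-type littermates of the Gfra1 line and hold every germ cell stage together with somatic cells. All mice were C57BL/6 and 10 to 11 weeks old, and each group had 3 arrays. A GFRα1+ or KIT+ array represents 1 mouse and an NGN3+ array a pool of 2, with RNA of 10000 to 20000 sorted cells or of 500000 cells of whole testis, and 25 ng of RNA was labelled for each. The 3 NGN3+ arrays, the 3 KIT+ arrays and GFRα1+ replicate 3 shared a slide and a scanner, whereas no whole testes array was on that slide, so that for KIT+ against whole testes slide and group cannot be told apart except through the GFRα1+ arrays. In such bulk samples fewer cells of a type and less RNA per cell cannot be told apart.

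Spermatogenesis starts from undifferentiated spermatogonia. GFRα1+ cells form the stem cell pool, their NGN3+ descendants are poised to differentiate, and retinoic acid turns NGN3+ cells into KIT+ differentiating spermatogonia, which divide several times before they enter meiosis as spermatocytes and then become haploid spermatids. Retinoic acid is made from retinol by dehydrogenases and is degraded by enzymes of the Cyp26 family. Spermatids replace histones first by transition proteins and then by protamines, small basic proteins that compact the sperm nucleus.

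Although the entries were picked as high in whole testes and low in GFRα1+ cells, few were in lists of genes of later germ cells. Only Prm1, a protamine, was in the list of 48 spermatid genes on the array, and only Cyp26b1, a retinoic acid-degrading enzyme, was in the list of 30 genes of retinoic acid synthesis and degradation. None was in the lists of meiotic entry, later spermatocytes, or sperm flagellum and cilium. The others encode the enzymes Gal3st1, Bhmt2, Adssl1 and Ecel1, the membrane or adaptor proteins Sgcb, Tmem37, Ccm2l and Dok7, the zinc finger protein Zfp672, and long noncoding RNA of a locus on chromosome 16. That locus gave 2 of the 13 entries, so the entries stand for 12 loci on 8 chromosomes, none of them on X.

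Because the entries rise along the same populations, their promoters were compared. Those of the retinoic acid enzyme, the protamine and a metabolic enzyme are shown. RefSeq (GRCm38.p6) gave 14 promoters for 10 of the 13 entries, each with 250 bases before and 50 after the start. The 250 bases before the start, 5′ to 3′, are printed for Cyp26b1, for Prm1 and for Adssl1, with capitals at the motifs found.
Cyp26b1 (chr6:84593811-84594060, - strand): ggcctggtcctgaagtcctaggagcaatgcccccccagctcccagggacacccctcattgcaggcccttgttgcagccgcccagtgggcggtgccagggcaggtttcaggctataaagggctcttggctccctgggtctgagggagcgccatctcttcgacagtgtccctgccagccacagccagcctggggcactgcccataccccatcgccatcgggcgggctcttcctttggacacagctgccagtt
Prm1 (chr16:10796824-10797073, - strand): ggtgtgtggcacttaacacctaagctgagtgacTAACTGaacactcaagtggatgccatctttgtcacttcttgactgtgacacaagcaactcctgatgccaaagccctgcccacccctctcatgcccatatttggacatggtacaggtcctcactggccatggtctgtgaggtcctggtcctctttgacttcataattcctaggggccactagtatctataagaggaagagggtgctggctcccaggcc
Adssl1 (chr12:112619797-112620046, + strand): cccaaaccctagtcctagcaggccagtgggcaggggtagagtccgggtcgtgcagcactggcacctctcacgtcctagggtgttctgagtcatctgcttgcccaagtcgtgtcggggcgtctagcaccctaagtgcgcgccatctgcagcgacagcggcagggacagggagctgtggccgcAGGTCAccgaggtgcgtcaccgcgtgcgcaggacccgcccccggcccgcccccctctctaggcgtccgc
In Prm1 the capitals mark TAACTG, a match to the MYB motif CNGTTA on the opposite strand, which is found in 23.3% of the 32851 promoters of the table on either strand. In Adssl1 they mark AGGTCA, the hexamer bound by retinoic acid receptors, which is found in 16.3% of promoters. Cyp26b1 held none of the 7 motifs searched. Counted by gene, AGGTCA was in the promoters of 2 of the 10 entries, Adssl1 and Zfp672, against 18.1% of all genes of the table, and CNGTTA in 1 of 10 against 25.9%. The RFX motif GTTGCC was in 1, Zfp672, against 14.1%. The STRA8 motif CNCCTCAG, the cAMP response element TGACGTCA, the E2F motif GGCGGGAA and the E-box CACGTG were in 0 of 10, against 9.12%, 2.03%, 2.52% and 8.09% of genes. Before its start Prm1 had 0 CpG, whereas Adssl1 had 21 and Cyp26b1 7, against a median of 6 over all promoters.

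**Figure D1:**
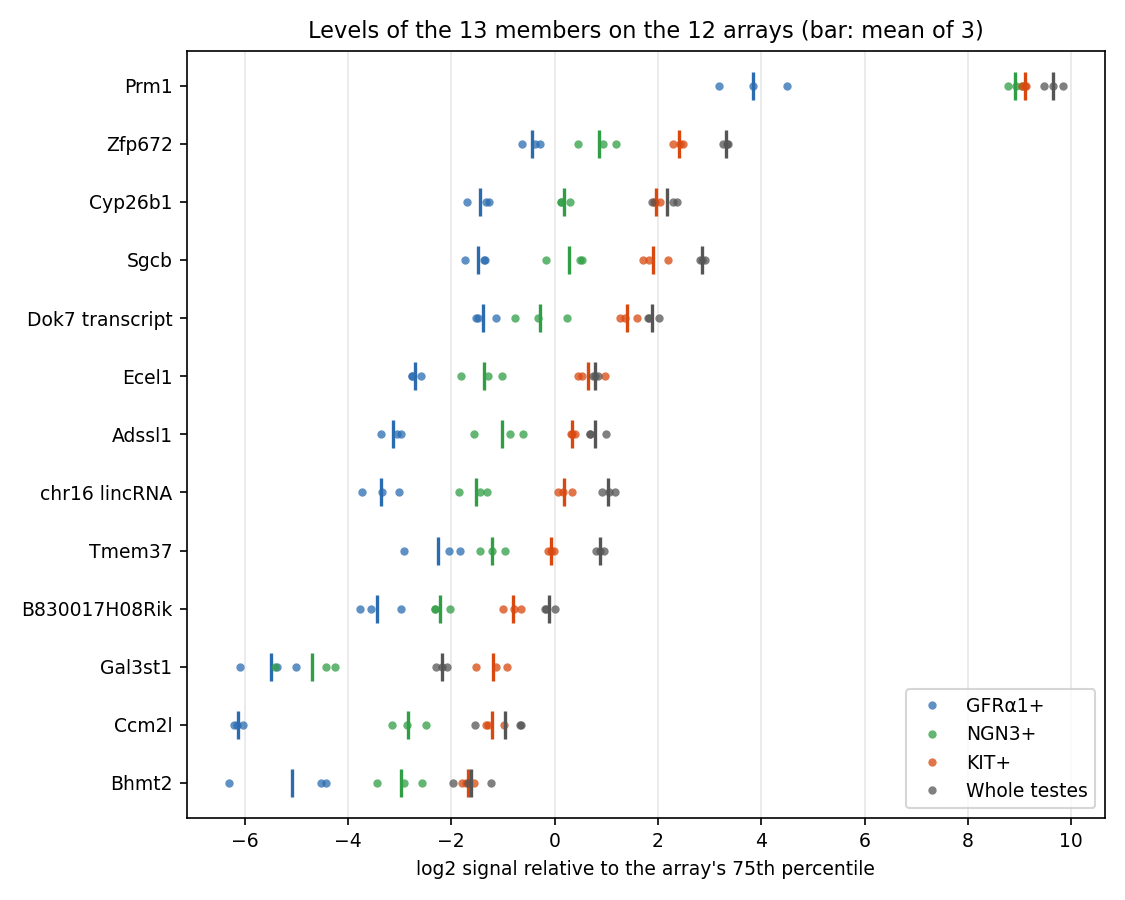
Level of each entry on the 12 arrays, as log2 signal relative to the 75th percentile of the array, with a point for each array and a vertical bar at each group mean of 3 arrays. The KIT+ arrays lay above the NGN3+ and GFRα1+ arrays for every entry, and for Gal3st1 they also lay above whole testes.

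The condition on whole testes over GFRα1+ was met by 4131 names, and nearly all of these were far below whole testes in KIT+ cells. Over the 4131 names the KIT+ minus whole testes difference had a median of -3.20 log2 units with quartiles of -3.60 and -2.79, so that the KIT+ signal was 10.8% of whole testes at the median. Only 25 of them, or 0.605%, had a KIT+ mean within 1 unit of whole testes. All 25 also met both conditions on NGN3+, and 12 of them then fell below the floor on the KIT+ mean. In NGN3+ cells the median signal of the 4131 names was 9.47% of whole testes, and in GFRα1+ cells 2.39%. For the 13 entries, 3 of them not well above background in GFRα1+, the median was 8.13% in GFRα1+, 23.3% in NGN3+ and 71.8% in KIT+. These differences follow from the choice of the entries and were not tested.

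**Figure D2:**
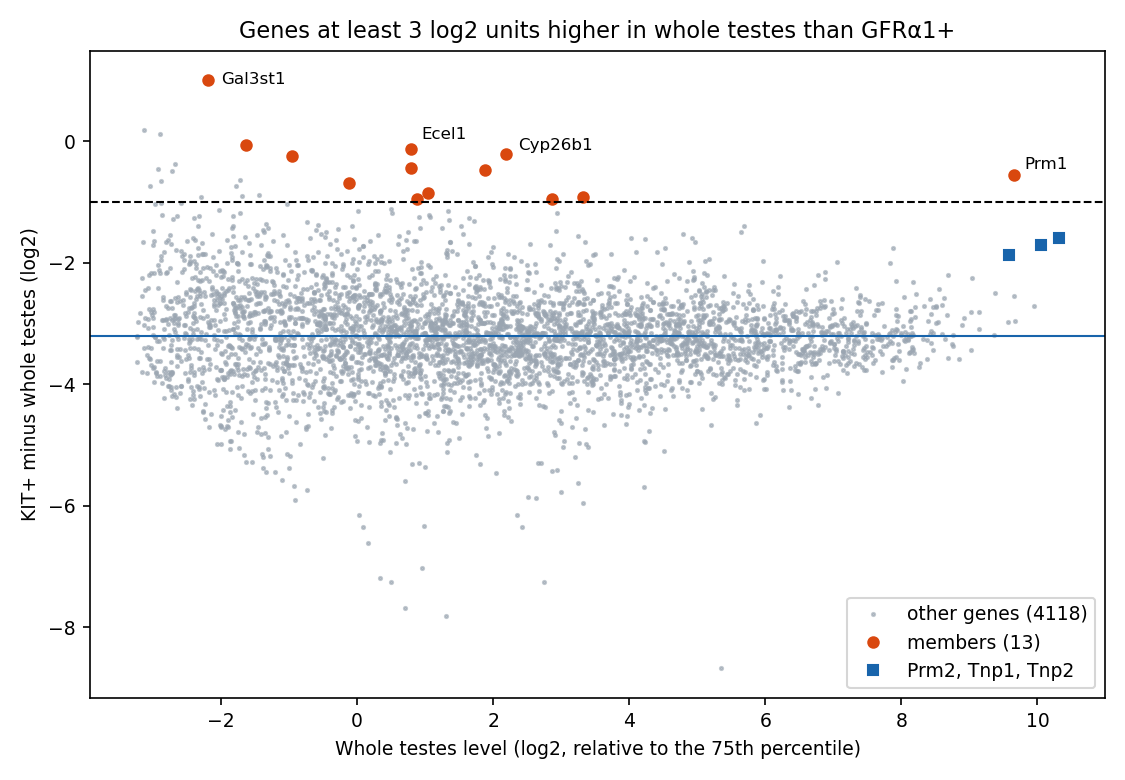
KIT+ minus whole testes (log2, means of 3 arrays) against the whole testes level (log2) for the 4131 names at least 3 log2 units higher in whole testes than in GFRα1+. The dashed line is the limit of -1 and the blue line the median of -3.20. The 13 entries (orange) lie above a dense band of other names, and Prm2, Tnp1 and Tnp2 (blue squares) lie between the band and Prm1.

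Cyp26b1, which degrades retinoic acid and in the fetal testis is known as a product of Sertoli cells that keeps germ cells out of meiosis, was higher at each step along the 3 sorted populations. Its probe lies at chr6:84521952-84522011 on the minus strand (mm9). Its levels were -1.70, -1.34 and -1.27 on the GFRα1+ arrays, 0.12, 0.30 and 0.13 on the NGN3+ arrays, 1.92, 2.04 and 1.95 on the KIT+ arrays, and 2.29, 2.37 and 1.89 in whole testes. The sorted groups did not overlap, whereas the KIT+ arrays lay within the range of whole testes. The KIT+ mean was 3.44-fold above NGN3+ and reached 86.1% of whole testes. The step from GFRα1+ to NGN3+ made up 47.6% of the whole GFRα1+ to KIT+ rise on the log2 scale.

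The other genes of the retinoic acid list did not move together with Cyp26b1. Between KIT+ and NGN3+ cells, where 17.5% of 24094 genes tested were called higher in KIT+ and 17% lower at an adjusted p under 0.05, 1 of 20 tested genes of the list without Cyp26b1 rose, 3 fell and 16 did not pass. Their median difference was 0.20 log2 units, against 0.05 over all genes tested. The gene that rose was Cyp26a1, a close relative of Cyp26b1, whose mean level was -1.36 in NGN3+ (SD 0.15, n = 3) and -0.65 in KIT+ (SD 0.45, n = 3), a difference of 0.71 (SE 0.24, limma with Benjamini-Hochberg adjustment, adjusted p = 0.0491). This call was lost in 9 of 14 alternative analyses, where the adjusted p reached 0.150. In whole testes Cyp26a1 was 3.15 units below KIT+ (limma adjusted p = 1.02e-06), at -3.81 ± 0.52, and its probe was well above background on 2 of 3 whole testes arrays. The remaining member of the family, Cyp26c1, was not well above background on any KIT+ or whole testes array. Among the genes that fell were Cyp2s1, at a KIT+ minus NGN3+ difference of -1.23 (SE 0.17, adjusted p = 8.11e-04), Rdh13 and Rdh14. The calls of Rdh13 and Rdh14 were each lost in 7 of 14 alternatives.

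Prm1, read by a probe at chr16:10796450-10796509 on the minus strand (mm9), was nearly as high in NGN3+ as in KIT+ cells. It stood at 3.85, 3.18 and 4.49 in GFRα1+, at 8.93, 9.04 and 8.78 in NGN3+, at 9.13, 9.11 and 9.06 in KIT+ and at 9.47, 9.84 and 9.65 in whole testes. The step from GFRα1+ to NGN3+ accounted for 96.6% of its rise on the log2 scale, and NGN3+ cells were already at 60.04% of whole testes against 67.9% in KIT+. In the other 9 entries well above background on all GFRα1+ arrays that step accounted for 39.4% to 60.9%, and for the 3 that were not, Gal3st1, Ccm2l and Bhmt2, no share is given. Prm1 was also the entry with the smallest KIT+ minus NGN3+ difference, at 0.18 log2 units, although the arrays did not overlap. Before scaling, its spot intensity ran from 310719 to 353166 on the KIT+ arrays and from 281117 to 346837 on the whole testes arrays, so the intensities themselves overlapped. Its intensity was 71.3% to 82.4% of that of the brightest gene probe on the KIT+ arrays. On the NGN3+ arrays it was 60.3% to 79.9% and on the whole testes arrays 61.4% to 65.6%. Whether differences are compressed at such brightness was not tested. The 75th percentile used for scaling was 568 to 633 on the KIT+ arrays and 380 to 422 on the whole testes arrays.

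Genes that act with Prm1 in spermatids lay further below whole testes in KIT+ cells than Prm1 did. Prm2, the second protamine, was at 8.47 ± 0.16 (SD, n = 3) in NGN3+, 8.71 ± 0.17 in KIT+ and 10.31 ± 0.17 in whole testes, so that KIT+ was at 33.1% of whole testes. The transition protein genes Tnp1 and Tnp2 were at 30.5% and 27.3% and Prm3, from the same gene cluster as Prm1, at 11.1%. None of the 4 passed the test between KIT+ and NGN3+, where their differences ran from 0.24 to 0.39 log2 units with limma adjusted p from 0.297 for Prm3 to 0.608 for Prm2. Among the 15 names with a whole testes level of 9 or more within the 4131, Prm1 had the smallest gap between KIT+ and whole testes, at -0.56, followed by Prm2 at -1.60. The median gap of these 15 was -2.71. Prm1 was the only entry among the 15, and the rule allowed an entry a gap of at most 1. Its first place, and its smaller gap than those of Prm2, Prm3, Tnp1 and Tnp2, therefore follow from the choice, and no inference is drawn from them.

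The wider spermatid list gives the values that move with Prm1. Of its 47 genes other than Prm1, 46 were at least 3 units higher in whole testes than in GFRα1+, and none of them came within 1 unit of whole testes in KIT+. The rule fixes that last result, since a gene that did would be an entry or lie under the floor on the KIT+ mean. No inference is drawn from it. The KIT+ signal of the 46 ran from 5.86% to 33.1% of whole testes, with a median of 11.3%. Between KIT+ and NGN3+ cells 0 of 47 were called by limma, with 2 at an unadjusted p under 0.05 and 0 by the methods' t-test after adjustment. All 47 had a positive difference, from 0.05 to 0.61, with a median of 0.38 against 0.05 over all genes. All 47 were called lower in KIT+ than in whole testes, with a median difference of -3.14 against 0.06 over all 24672 genes tested, of which 41.6% were called lower and 43.3% higher in KIT+. The summed signal of the list was 5.63 to 6.35 (log2) on the GFRα1+ arrays, 10.25 to 10.75 on NGN3+, 10.60 to 11.12 on KIT+ and 13.22 to 13.45 in whole testes. All 47 were well above background on every NGN3+ and KIT+ array. The part of spermatid RNA in the Prm1 level of sorted cells was not tested.

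**Figure D3:**
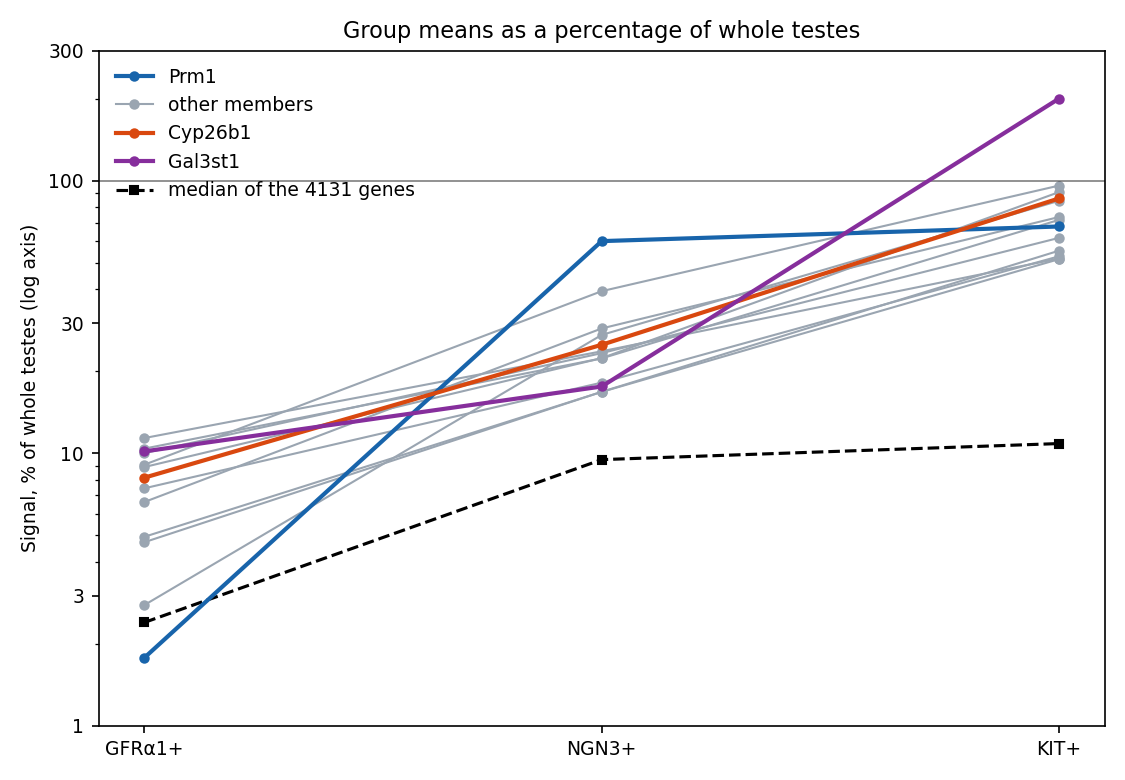
Group mean of each entry in GFRα1+, NGN3+ and KIT+ cells as a percentage of its whole testes mean, on a log axis, with the median of the 4131 names dashed. Prm1 reaches 60.04% in NGN3+ and 67.9% in KIT+, Gal3st1 goes from 17.6% to 200.3%, and the dashed median stays at 9.47% and 10.8%.

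Gal3st1, the sulfotransferase that makes the testis sulfolipid seminolipid and brain sulfatide, had the largest difference between NGN3+ and KIT+ of the entries in the deposited values. Its probe lies at chr11:3899197-3899256 on the plus strand (mm9). Its levels were -5.42, -4.43 and -4.25 in NGN3+, -1.52, -1.13 and -0.92 in KIT+, and -2.08, -2.30 and -2.19 in whole testes. The KIT+ arrays lay above all the others, at 200.3% of the whole testes mean. Against NGN3+, where the lowest of the 3 arrays was not well above background, the KIT+ mean was 3.51 log2 units higher (11.4-fold), but with normexp background correction and quantile normalization 1.68 units (3.19-fold), and another entry then had the largest difference, 1.72. Its GFRα1+ arrays, at -5.01, -6.09 and -5.37, were not well above background, the scanner software's call that a spot exceeds its local background, and overlapped with NGN3+. Set against the lowest signal well above background, KIT+ was at least 7.23-fold above GFRα1+. Ugt8a, the galactosyltransferase that makes the lipid Gal3st1 acts on, was at -1.64 ± 0.24 in NGN3+, -0.18 ± 0.17 in KIT+ and -2.32 ± 0.05 in whole testes. It rose by 1.45 from NGN3+ to KIT+ (SE 0.17, limma adjusted p = 3.14e-04). Arsa, an arylsulfatase that removes the sulfate, did not pass, at a difference of -0.15 (SE 0.36, adjusted p = 0.794).

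Adssl1 encodes the muscle type of adenylosuccinate synthase, an enzyme of AMP synthesis. It was at -3.37, -3.04 and -2.98 in GFRα1+, -1.57, -0.86 and -0.62 in NGN3+, 0.33, 0.31 and 0.40 in KIT+, and 0.68, 0.68 and 1.0 in whole testes. No groups overlapped and KIT+ stood at 73.6% of whole testes. Its isozyme Adss went the other way, with a KIT+ minus NGN3+ difference of -0.72 (SE 0.12, limma adjusted p = 0.00184), and Adsl, which acts next in the pathway, did not pass at 0.09 (SE 0.12, adjusted p = 0.633).

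Bhmt2 encodes a methyltransferase that forms methionine from homocysteine. It was at -3.44, -2.91 and -2.56 in NGN3+ and at -1.79, -1.56 and -1.71 in KIT+, inside the whole testes range of -1.24, -1.67 and -1.97. Its GFRα1+ arrays, at -4.52, -6.31 and -4.43, were not well above background, which makes the rise from GFRα1+ to KIT+ at least 5.12-fold. Its relative Bhmt was at 0.656% of whole testes in KIT+ cells, where 2 of 3 arrays were well above background. Mtr, the methionine synthase, fell from NGN3+ to KIT+ by 1.13 (SE 0.20, adjusted p = 0.00248).

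Ecel1, a membrane metalloprotease known from neurons, was at -2.76, -2.59 and -2.75 in GFRα1+, -1.81, -1.29 and -1.01 in NGN3+, 0.54, 0.97 and 0.45 in KIT+, and 0.74, 0.85 and 0.78 in whole testes. KIT+ and whole testes overlapped, and the KIT+ mean was 4.07-fold above NGN3+ and 90.9% of whole testes. Its relatives Ece1 and Mmel1 did not pass between KIT+ and NGN3+, at differences of 0.004 (SE 0.173) and -0.15 (SE 0.20). Ece2 and Mme were not tested because too few of their spots were well above background.

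Sgcb, a sarcoglycan of the complex that anchors dystrophin in the muscle membrane, was at -1.34, -1.74 and -1.36 in GFRα1+, -0.17, 0.53 and 0.50 in NGN3+, 1.82, 1.70 and 2.19 in KIT+ and 2.81, 2.85 and 2.92 in whole testes, with no overlap and KIT+ at 51.6% of whole testes. The complex did not move as a whole. Of its partners, Dmd, which encodes dystrophin, rose by 1.53 (SE 0.28, limma adjusted p = 0.00315), Sgce and Sspn fell by 1.56 and 1.40 (adjusted p = 3.02e-04 and 0.00136), and Sgca and Dag1 did not pass. Sgcd and Sgcz were not well above background on any KIT+ array.

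The entry ENSMUST00000114270 is annotated in the files as a transcript of Dok7, an adaptor that activates the receptor kinase MuSK at the neuromuscular junction. Its levels were -1.14, -1.53 and -1.48 in GFRα1+, -0.77, -0.31 and 0.23 in NGN3+, 1.26, 1.59 and 1.36 in KIT+ and 1.82, 2.01 and 1.82 in whole testes. The groups did not overlap and KIT+ was at 71.8% of whole testes. Of the partners of Dok7, Agrn, the ligand of this pathway, rose by 0.55 from NGN3+ to KIT+ (SE 0.13, limma adjusted p = 0.0102), Lrp4 and Rapsn did not pass, and Musk itself was not well above background on any KIT+ or whole testes array.

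Ccm2l, a relative of the vascular adaptor Ccm2, was near -6 in GFRα1+ cells, at -6.15, -6.20 and -6.04, with no array well above background. It was at -2.5, -2.86 and -3.15 in NGN3+, -1.32, -0.99 and -1.30 in KIT+ and -0.68, -1.54 and -0.66 in whole testes, where the KIT+ values fell inside the range. KIT+ was at least 7.15-fold above GFRα1+ and at 84.4% of whole testes. Ccm2 fell from NGN3+ to KIT+ by 0.58 (SE 0.12, adjusted p = 0.00588). Its partner Krit1 was 0.37 higher (SE 0.10, adjusted p = 0.0190), a call lost in 5 of 14 alternatives, Heg1 fell by 1.44 (adjusted p = 2.04e-04) and Pdcd10 did not pass.

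Tmem37, related to the gamma subunits of voltage-gated calcium channels, was at -1.45, -0.96 and -1.20 in NGN3+, -0.02, -0.12 and -0.07 in KIT+ and 0.80, 0.95 and 0.88 in whole testes, with no overlap and KIT+ at 51.8% of whole testes. Its GFRα1+ values of -2.04, -1.84 and -2.91 were lowest on the array that shared the slide of the KIT+ arrays. Of the channel subunits, Cacng6 and Cacng7 fell from NGN3+ to KIT+ by 0.87 and 0.88 (limma adjusted p = 0.00436 and 7.03e-04), Cacng4 did not pass and Cacng1 was not well above background in KIT+.

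Zfp672, a zinc finger protein gene, was at -0.63, -0.38 and -0.28 in GFRα1+, 0.45, 0.93 and 1.19 in NGN3+, 2.28, 2.48 and 2.43 in KIT+ and 3.26, 3.33 and 3.36 in whole testes. The KIT+ arrays stood apart from NGN3+ and whole testes, at 52.8% of whole testes.

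The chromosome 16 locus holds both noncoding entries. The long noncoding RNA gene B830017H08Rik was read by a probe at chr16:17834458-17834517 on the plus strand (mm9). The second entry is a lincRNA that the files place at chr16:17833211-17835112 on the same strand, and its probe at chr16:17834993-17835052 lies downstream of the first. The lincRNA was at -3.02, -3.74 and -3.34 in GFRα1+, -1.84, -1.31 and -1.44 in NGN3+, 0.17, 0.33 and 0.07 in KIT+ and 1.04, 1.17 and 0.92 in whole testes. B830017H08Rik was at -3.77, -3.55 and -2.98 in GFRα1+, -2.31, -2.31 and -2.02 in NGN3+, -0.79, -0.64 and -0.99 in KIT+ and -0.18, 0.01 and -0.17 in whole testes. KIT+ was at 55.4% and 61.7% of whole testes, and since the probes may read the same RNA the pair is not independent. Car15, a carbonic anhydrase gene whose probe lies next to them on the minus strand at chr16:17835369-17835428, rose as well, from 0.33 ± 0.03 in NGN3+ to 1.29 ± 0.19 in KIT+ (difference 0.95, SE 0.14, limma adjusted p = 0.00101), with whole testes at 1.54 ± 0.01.

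Side by side, the entries differed in how the rise was divided between the steps. In the 10 entries well above background on all GFRα1+ arrays, the NGN3+ minus GFRα1+ difference ran from 1.06 for Tmem37 to 5.08 for Prm1 with a median of 1.47, and the KIT+ minus NGN3+ difference from 0.18 for Prm1 to 2.02 for Ecel1 with a median of 1.58. Over all 13 the latter was above 1 in 12, although with normexp and quantile normalization it was 0.88 for Tmem37 and 0.59 for Bhmt2. It was above 1 in 87 of the 4131 names (2.11%), whose median was 0.24. The rule required KIT+ at or above NGN3+ and near whole testes, so no inference is drawn from this contrast either. KIT+ and NGN3+ arrays did not overlap for any of the 13, where 17.5% of all genes tested were called higher in KIT+. KIT+ and whole testes did not overlap for 9, of which only Gal3st1 was higher in KIT+, and 41.6% of all genes tested were called lower in KIT+ than in whole testes. A limma call is a different measure from arrays that do not overlap, and the share of all genes without overlap is not given here. No inference is drawn from either count, or from the lack of overlap in single entries, because the rule used both contrasts. Of 38 relatives and pathway partners of the entries, 30 were tested between KIT+ and NGN3+, and 6 rose and 8 fell.

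The NGN3+ arrays differed in a common way for most entries. NGN3+ replicate 1 was the lowest of them for 10 of the 13, with a median deviation of -0.41 from the group mean. It was lowest for 27.9% of all 24094 genes tested, where it deviated by 0.07 at the median. Over the 4220 genes called higher in KIT+ it deviated by -0.02. The shift was not particular to the entries. The summed signal of spermatid genes was 10.25 on this array against 10.75 and 10.64 on the other NGN3+ arrays. That of later spermatocytes was 8.18 against 8.65 and 8.79, and that of flagellum and cilium 7.53 against 8.15 and 8.31. Undifferentiated spermatogonia genes went the other way, at 8.91 against 8.55 and 8.30. Kit itself was at 1.48, 1.83 and 2.60 on the NGN3+ arrays and at 4.46, 4.68 and 4.52 on the KIT+ arrays. The SD of the entries was 0.10 to 0.63 in NGN3+ and 0.04 to 0.31 in KIT+. Leaving out NGN3+ replicate 1 kept all 13 entries.

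The limits did not separate the entries sharply from their neighbours. Tmem37 lay 0.14 inside the limit on whole testes over GFRα1+, with an SD of 0.57 in GFRα1+. Sgcb lay 0.04 inside the limit on KIT+ below whole testes, with an SD of 0.25 in KIT+. Just inside the limit on whole testes over GFRα1+ were Tmem37 (difference 3.14), the Dok7 transcript (3.27) and Gal3st1 (3.30), and just outside it Clip1 (2.93), Dchs1 (2.86) and Ppp1r14a (2.81). Just inside the limit on KIT+ below whole testes were Sgcb (-0.96), Tmem37 (-0.95) and Zfp672 (-0.92), and just outside it Guca1a (-1.12), Man2a2 (-1.15) and Tppp3 (-1.16). Above the floor on the KIT+ mean were Bhmt2 (-1.68), Ccm2l (-1.20) and Gal3st1 (-1.19), and below it Hddc3 (-2.33), Lrcol1 (-2.36) and 1700031F05Rik (-2.51). Nearest to the NGN3+ limits were Gal3st1 (0.79 above GFRα1+, where it was not well above background) and Prm1 (0.18 below KIT+), and no name failed on either of these conditions alone. Among the 12 names under the floor, Trdn and Pik3ap1 had KIT+ means 0.19 and 0.12 above whole testes. Trdn, like Hddc3 and Clip1, entered when a single array was left out.

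Other probes for the same genes gave mixed results. Of the 13 entries 8 had a single probe, and 5 had others, 8 probes in all, of which 1 met the rule. All 8 showed the same order of GFRα1+, NGN3+ and KIT+. Both further Sgcb probes put KIT+ at 41.4% and 29.7% of whole testes against 51.6% for the probe used. A probe for the Dok7 mRNA (chr5:35430414-35430473, against chr5:35423495-35423554 for the entry, mm9) gave 35.6% with a KIT+ mean of -1.94. For Zfp672 the probe used reads a noncoding variant, and a probe for the mRNA put KIT+ at 97.6% of whole testes, 1.52 against 1.56, with whole testes 2.93 above GFRα1+. For Ccm2l the further probes gave 109.0% and 101.4%, at KIT+ means of -3.0, below the floor. The lincRNA probes gave 54.2% and 46.3%.

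**Figure D4:**
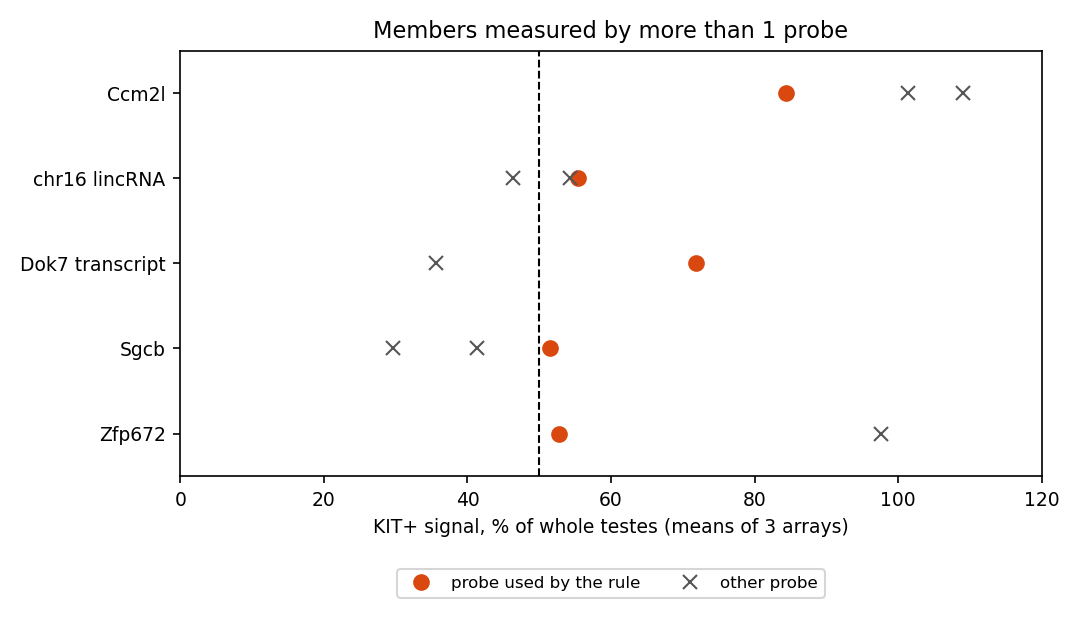
KIT+ signal as a percentage of whole testes (means of 3 arrays) for each probe of the 5 entries with more than 1 probe. The dashed line marks 50%, the limit of 1 log2 unit. Crosses for Sgcb and the Dok7 transcript lie left of the line, while those for Ccm2l and Zfp672 lie right of the probe used.

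Genes of meiotic entry were not among the entries. Of 50 genes of meiotic entry and early prophase, 35 had a KIT+ mean within 1 unit of whole testes but only 3 were at least 3 units higher in whole testes than in GFRα1+, and none met both. These shares of 70% and 6% stood against 74.3% and 11.3% of all 36413 names. That none met both adds little to their absence from the entries, since such a gene would be an entry or under the KIT+ floor. Between NGN3+ and KIT+ cells 25 of 49 tested rose, 7 fell and 17 did not pass, with a median difference of 0.37. Prdm9, the histone methyltransferase that places recombination sites, rose by 1.98 (SE 0.14, limma adjusted p = 3.53e-05), Mei1 by 1.40 (SE 0.13, adjusted p = 1.24e-04) and M1ap by 1.32 (SE 0.12, adjusted p = 1.03e-04), whereas Fbxo47 fell by 1.19 (SE 0.12, adjusted p = 1.63e-04). Prdm9 was at 260.8% of whole testes in KIT+ and Mei1 at 455.9%. Of 36 genes of later spermatocytes, 22 were at least 3 units higher in whole testes, and their KIT+ signal was 11.9% of whole testes at the median, with Ldhc the highest at 20.9%. Between KIT+ and NGN3+ 3 of the 36 rose and 2 fell. For 58 of 74 flagellum and cilium genes that were as high in whole testes the median was 10.2%, and 0 of 70 tested rose and 7 fell, with 9 at an unadjusted p under 0.05 and 6 called by the methods' t-test.

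By their summed signal, lists of spermatogonial markers separated NGN3+ from KIT+ cells more than GFRα1+ from NGN3+. The sum of undifferentiated spermatogonia genes was 8.59 to 8.66 (log2) in GFRα1+, 8.30 to 8.91 in NGN3+ and 6.68 to 6.96 in KIT+. That of differentiating spermatogonia genes was 9.01 to 9.12 in GFRα1+, 8.72 to 8.93 in NGN3+ and 9.19 to 9.39 in KIT+. A sum can stay level while single genes change, and single genes were not tested between GFRα1+ and NGN3+. All 24 tested genes of undifferentiated spermatogonia fell from NGN3+ to KIT+, with a median difference of -2.09, and 13 of 23 genes of differentiating spermatogonia rose and 5 fell. Of genes of the cell cycle 20 of 26 rose and none fell, and of DNA replication 24 of 33 rose and 2 fell.

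Whole testes also hold somatic cells, so somatic markers are given beside the entries. The summed signal of 30 Sertoli cell markers was 6.43 to 6.64 (log2) in GFRα1+, 6.33 to 6.68 in NGN3+, 6.38 to 6.59 in KIT+ and 8.84 to 9.07 in whole testes. That of 13 Leydig cell markers was 5.33 to 5.44, 4.95 to 5.12, 5.25 to 5.49 and 5.98 to 6.44, and that of 10 endothelial markers 3.39 to 4.01, 2.56 to 3.56, 2.41 to 2.49 and 4.45 to 4.75, in the same order. That of 10 peritubular myoid markers was 2.01 to 2.13, 4.07 to 4.67, 4.02 to 4.37 and 7.13 to 7.35 in the same order, so this sum was higher in NGN3+ and KIT+ than in GFRα1+. The same held for 7 red blood cell markers, at -1.68 to -1.46, -0.80 to -0.07, -0.37 to 1.72 and 4.66 to 5.07, where KIT+ replicate 3 gave the 1.72 and the other KIT+ arrays -0.28 and -0.37. The myoid marker Acta2 was at 1.38, 1.96 and 0.00 in NGN3+ and at -0.66, -0.93 and -1.78 in KIT+, a fall of 2.24 (SE 0.53, limma adjusted p = 0.0115). Of the 9 myoid genes tested 1 rose and 5 fell between NGN3+ and KIT+. The myoid sum lay close to the level of Actg2 alone, which was at 7.01 in whole testes. Its KIT+ minus whole testes difference was -3.34 and its KIT+ minus NGN3+ difference 0.38, so the sum does not stand for the list as a whole. Of Sertoli genes 2 of 26 rose and 3 fell, with Sox9 at -3.65 to -4.19 in NGN3+ and -3.88 to -4.16 in KIT+, where it was not well above background on any array. Of Leydig genes 2 of 7 rose and 0 fell, with Star at -3.30 to -3.41 in KIT+. Of endothelial genes 0 of 8 rose and 4 fell, of macrophage and leukocyte genes 0 of 6 rose and 1 fell, of mast cell genes 0 of 2 were called, and of red blood cell genes 1 of 3 rose. Of these lists 24 Sertoli, 7 Leydig, 7 myoid, 6 endothelial, 5 macrophage and leukocyte, 2 mast cell and 3 red blood cell genes were well above background on all KIT+ arrays. The part of somatic RNA in the levels of the entries was not tested.

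The number of entries was steadier than the membership when single arrays were left out. It stayed between 12 and 14 over the 12 arrays, whereas only 9 of the 13 were kept each time. Without GFRα1+ replicate 2, Bhmt2 and Gal3st1 were lost, without GFRα1+ replicate 3 Tmem37, and without KIT+ replicate 3 Sgcb. With the KIT+ slide's own GFRα1+ array as the only GFRα1+ value, 16 names met the rule and 11 of the 13 were among them. Scaling moved the number further. With the percentile limited to probes that exceeded background throughout, 4 names met the rule, 3 of them among the 13, and the median KIT+ minus whole testes difference over all names moved by -0.27. Under quantile normalization 14 names met the rule, all 13 entries among them, and the KIT+ minus whole testes difference of Prm1 was 0.06 in place of -0.56.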

How the data were processed

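RNA was measured on Agilent 8x60K one-colour arrays. The authors extracted spots with Feature Extraction (version 10.7.3.1 in the submitters' notes, also 10.7.1.1 in the headers of slide 2). They deposited processed intensity for each spot and a table of log2 values, which was found to be log2 intensity minus the 75th percentile of each array, to within 0.01. That percentile was 318 to 675, and 50.1% to 65.1% of 55681 probes were well above background. No spot was saturated. Members' levels are from the deposited log2 table. Other genes were tested on the scanner intensities, without outlier spots (103 to 161 per array), with limma 3.58.1 in R 4.3.3 (lmFit, eBayes, Benjamini-Hochberg): 9 arrays for KIT+ against NGN3+ and 12 for KIT+ against whole testes. Tests covered names whose probe, the brightest on average in the fit, exceeded background in each of the 3 samples of either compared group. At least N-fold values use the lowest signal well above background in place of dim spots. The members and lists were chosen with earlier results of these data known, and the partners after the members were. Members may all be named, as may up to 4 genes of a list by adjusted p, and listed markers. The partners, Ldhc, Trdn and Pik3ap1 fall outside this and were named with their values seen. Names were updated by RefSeq accession for 26525 probes. The number of arrays limits precision, and p-values measure the spread between these samples. Some partners are not reported here by name.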

Additional observations from a re-analysis of the deposited data

How the results depend on the processing

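The number of entries depended most on the limits and the scaling. It was 13 as described, 4 with the percentile limited to probes that exceeded background throughout, 7 with normexp correction and quantile normalization, and 14 with quantile normalization alone. With the limit on whole testes over GFRα1+ at 2 or 4 it was 45 or 4, with KIT+ allowed 0.5 or 2 below whole testes 7 or 97, and with a floor of 0 on the KIT+ mean 8. Scaled to the spike-in probes, an alternative chosen after seeing the data, it was 1036 and held all 13. On these probes GFRα1+ arrays read 0.48 to 1.42, NGN3+ -1.22 to -1.07, KIT+ -1.30 to -1.17 and whole testes 0.33 to 0.91 (log2) relative to the percentile. The amount of spike-in was not given in the sources used here. This scaling moved KIT+ minus whole testes by 1.92, or 3.79-fold, from a median of -0.48 to 1.45 over the 13 entries and from -3.20 to -1.28 over the 4131 names. Every percentage of whole testes in KIT+ or NGN3+ therefore depends on it. The same holds for each fold of NGN3+ or KIT+ over GFRα1+ and each share of the rise given for the step from GFRα1+ to NGN3+. KIT+ and NGN3+ arrays read alike on these probes. The other alternatives gave 12 to 19. Leaving out single arrays gave 12 to 14. The median KIT+ minus whole testes difference of all names moved by -0.27 with the limited percentile, 0.13 with quantile normalization and 0.10 with normexp, and Prm1 moved to 0.06 under quantile normalization. With normexp the KIT+ minus NGN3+ difference fell from 3.51 to 1.68 for Gal3st1 and from 1.29 to 0.59 for Bhmt2. Members' differences moved beyond the spread of replicates in 18 of 260 alternatives.

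The arrays were not treated as paired by replicate number. Deviations of same-numbered NGN3+ and KIT+ arrays correlated at -0.32, -0.42 and 0.17. Such correlations cannot show whether same-numbered samples came from the same preparation. With the replicate block, 7125 genes in place of 8321 were called between KIT+ and NGN3+, and 20830 in place of 20949 between KIT+ and whole testes. Leaving out single arrays gave 6194 to 7716 and 20396 to 20713. With slide as a block 17469 were called for the latter, and Rapsn turned from -0.80 to 0.093. The cause of these changes was not tested.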
